A study of Mus musculus with 2 samples.

Results

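The Pax6 locus of newborn mouse midbrain was described from lists of sites open to the nuclease DNase I. DNase-seq releases short fragments from nuclei wherever regulatory proteins keep the DNA accessible, and sequencing their ends places these sites on the genome. The locus was taken as the Pax6 gene (ENSMUSG00000027168.21, chr2:105668900-105697364 on the plus strand of mm10, GENCODE M21) with 200 kb on each side, that is chr2:105468900-105897364, and Pax6 start sites were searched within 500 bp. Members were selected by measured values, namely the presence of a peak or hotspot with its midpoint in this window, so their number and strength are given as a description and no test was made. The window held 65 of 228203 peaks of replicate 1 and 49 of 122593 peaks of replicate 2, with 62 of 206454 and 39 of 111394 hotspots, the wider intervals that the authors also called. Merging the peaks of both libraries gave 89 regions in the window, out of 260777 in the genome.

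All tissue was midbrain of B6NCrl mice on postnatal day 0, males and females pooled. There was 1 group of 2 biological replicates, no treatment and no second tissue. Both libraries trace to a single pooled donor entry, and nothing beyond the replicate numbers tells whether the animals differed, so the spread between them may be partly technical. The nuclei were prepared by a protocol whose name refers to cultured cells and to crosslinking.

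PAX6 is a transcription factor with a paired domain and a homeodomain, both of which bind DNA. It is needed for the eye, the dorsal forebrain, the cerebellar granule cell lineage and the pancreatic islets, and loss of 1 copy causes small eyes in mice and aniridia in humans. Transcription of Pax6 starts at upstream promoters, known as P0 and P1, and at an internal promoter, known as Pα, whose product lacks the paired domain. Long-range enhancers lie upstream of the gene and downstream of it, many of the latter inside the introns of Elp4, a neighbouring gene for a subunit of the Elongator complex. Deletions of this downstream region can silence PAX6 in human eyes although the gene itself is intact.

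Of the 89 regions, 16 held a peak of each library and are called replicated, 46 held peaks of replicate 1 alone and 27 peaks of replicate 2 alone. The replicated share was 18.0% (95% Wilson interval 11.4 to 27.2, counting error only), against 28.7% of all regions in the genome. Of the replicate 2 peaks in the window, 18 of 49 overlapped a replicate 1 peak, 36.7% (24.7 to 50.7), against 64.6% genome-wide. Among the stronger 50% of each list the direction was the other way, with 10 of 11 replicate 2 peaks shared (90.9%) against 84.0% genome-wide. Of the replicate 1 peaks, 18 of 65 were shared, 27.7% (18.3 to 39.6), against 33.5%. Merged hotspots gave 15 of 81 with both libraries, 18.5% (11.6 to 28.3), against 28.1%. The intervals make no test against the genome values, since the members were selected by their peaks. Neighbouring peaks are not independent, so the intervals are narrower than they should be.

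**Figure D1:**
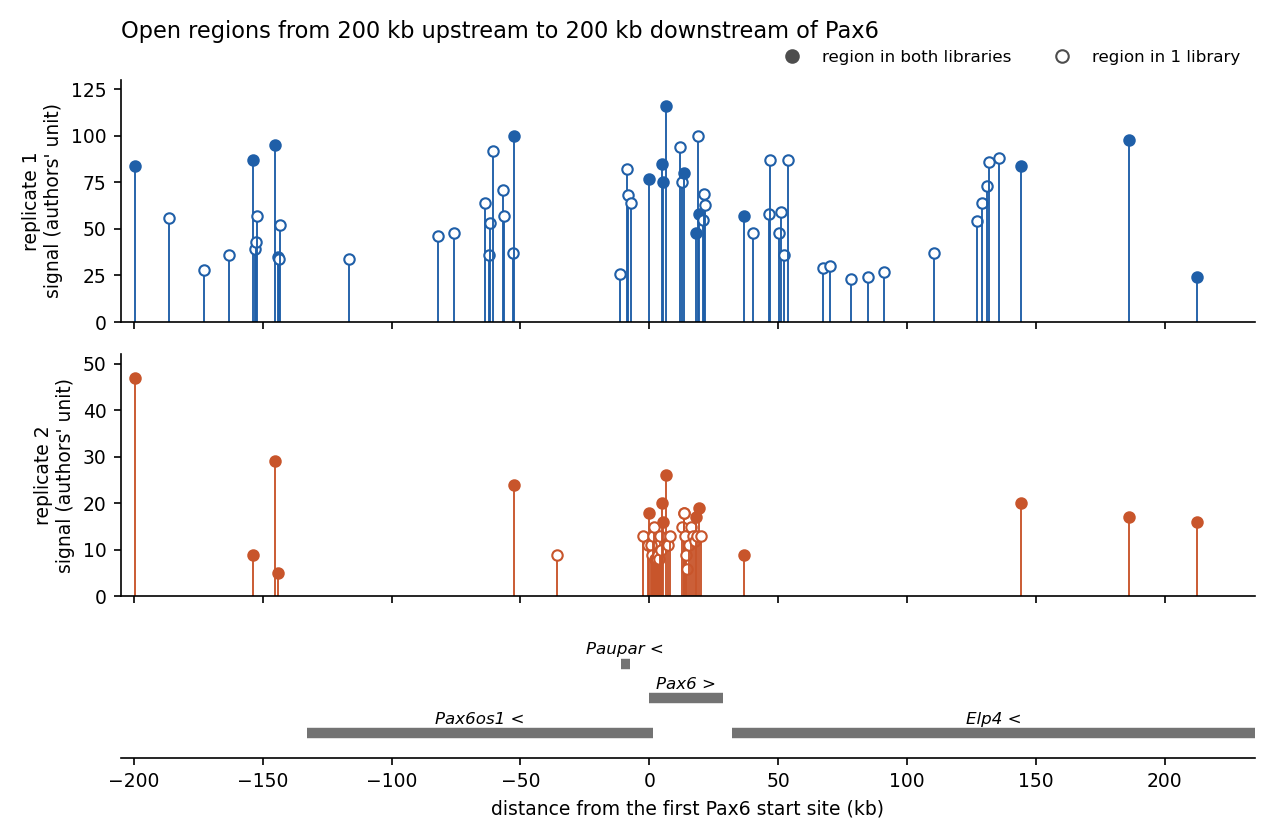
Open regions from 200 kb upstream to 200 kb downstream of Pax6, plotted by distance from the first Pax6 start site (kb) against the highest deposited signal of each library in the region (authors' unit, scales differ between the libraries). Filled points are the 16 replicated regions, open points the 46 regions of replicate 1 alone (blue) or the 27 of replicate 2 alone (orange), and grey bars are genes, with > or < for their strand. Replicate 1 sites run along the whole window, whereas those of replicate 2 crowd over the gene.

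The sequences of 7 replicated regions are shown, because the results below turn on them: 2 at Pax6 start sites, 1 in a Pax6 intron, 2 upstream and 2 in Elp4 introns. They are plus-strand mm10 sequence from the RefSeq copy of GRCm38.p6. Capitals mark every match, on either strand, to any of 17 short words bound by transcription factor families. The region at the first start site is shown only up to the base before transcription begins, and the region at the strongest promoter, chr2:105675296-105675685, lies wholly in annotated untranslated sequence and is not printed.

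First start site of Pax6, chr2 105668756 to 105668899: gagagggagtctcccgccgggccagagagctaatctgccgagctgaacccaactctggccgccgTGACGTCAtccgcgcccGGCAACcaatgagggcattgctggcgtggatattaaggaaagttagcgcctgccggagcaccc

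Internal start sites in Pax6 intron 3, chr2 105682036 to 105682305: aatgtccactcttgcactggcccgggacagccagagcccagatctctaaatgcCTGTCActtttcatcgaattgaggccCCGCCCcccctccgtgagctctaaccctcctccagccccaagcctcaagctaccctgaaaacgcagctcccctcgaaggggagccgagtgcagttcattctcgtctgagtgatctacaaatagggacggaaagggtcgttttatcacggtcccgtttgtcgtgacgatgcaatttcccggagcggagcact

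Pax6 intron 7, chr2 105686896 to 105687105: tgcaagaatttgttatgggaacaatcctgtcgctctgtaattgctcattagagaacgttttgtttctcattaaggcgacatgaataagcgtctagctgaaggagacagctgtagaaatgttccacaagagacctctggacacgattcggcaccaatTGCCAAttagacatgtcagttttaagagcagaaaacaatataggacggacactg

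Upstream site at -145.4 kb, chr2 105523336 to 105523605: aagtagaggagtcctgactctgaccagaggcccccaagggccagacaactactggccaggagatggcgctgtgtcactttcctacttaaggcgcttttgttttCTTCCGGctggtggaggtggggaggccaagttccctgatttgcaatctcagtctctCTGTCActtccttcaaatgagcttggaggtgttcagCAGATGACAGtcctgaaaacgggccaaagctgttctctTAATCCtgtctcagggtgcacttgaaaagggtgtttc

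Upstream site at -52.5 kb, chr2 105616376 to 105616525: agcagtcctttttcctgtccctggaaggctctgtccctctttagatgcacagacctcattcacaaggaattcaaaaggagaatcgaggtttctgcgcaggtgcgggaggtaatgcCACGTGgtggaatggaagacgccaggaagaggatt

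Elp4 intron 6, chr2 105813116 to 105813305: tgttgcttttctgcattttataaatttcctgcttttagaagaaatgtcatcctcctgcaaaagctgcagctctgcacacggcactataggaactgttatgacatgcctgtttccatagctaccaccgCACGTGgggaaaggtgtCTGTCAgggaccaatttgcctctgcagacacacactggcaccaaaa

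Elp4 intron 3, chr2 105854856 to 105855065: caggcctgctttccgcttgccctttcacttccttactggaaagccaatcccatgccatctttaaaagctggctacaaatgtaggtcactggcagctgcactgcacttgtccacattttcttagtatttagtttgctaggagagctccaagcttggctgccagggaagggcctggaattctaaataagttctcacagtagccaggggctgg

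At the first start site the capitals mark TGACGTCA, the word of the CREB family of cyclic AMP responsive factors. They also mark GGCAAC, the reverse complement of GTTGCC, a word of the RFX factors. TGACGTCA was in 2.42% and GTTGCC in 9.71% of the 22311 replicated promoter regions of the genome, each searched over its own width and on both strands. Of 32851 RefSeq promoter windows, 1.79% held TGACGTCA. The internal region of intron 3 carries CTGTCA, the reverse complement of TGACAG, a word of the MEIS homeodomain factors. TGACAG was in 11.0% of promoter regions. The region also carries CCGCCC, the reverse complement of the SP/KLF word GGGCGG, which was in 47.1%.

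The -145.4 kb site is the richest of the printed set. It holds CTTCCGG (the ETS word CCGGAAG on the other strand), TGACAG once on each strand, TAATCC of the OTX factors and CAGATG, an E-box used by the proneural factors NEUROG and NEUROD. Its CAGATG and one of its TGACAG words overlap by shared bases and appear as a single run of capitals. The -52.5 kb site and the Elp4 intron 6 site both carry CACGTG, an E-box of basic helix-loop-helix leucine zipper factors, and the latter also has CTGTCA. The Elp4 intron 3 site has none of the 17 words, and so no capitals. The Pax6 intron 7 site has TGCCAA, the reverse complement of TTGGCA, a word of the nuclear factor I family.

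Pax6 has 26 annotated transcripts with 24 distinct start positions in 12 groups. Of these positions, 18 (75.0%) had a replicated region within 500 bp, against 49.0% of all 93513 start positions of protein-coding genes. This order depended on how a shared region was counted. With an overlap of at least 50% of both peaks, 4 of the 24 (16.7%) remained against 46.5% genome-wide, and with a reach of 100 bp, 7 (29.2%) against 39.2%, so Pax6 was then below the genome share. With protein-coding transcripts only, 8 of 10 positions (80.0%) had one against 54.6%. By gene, 61.0% of 21938 protein-coding genes had such a region at 1 or more start positions. Replicate 1 had a peak within reach of 16 positions and replicate 2 of 21. The positions share regions, since 5 replicated regions served all 18, so they are not 18 separate sites.

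The first start site group, chr2:105668900-105668935, had signals of 77 in replicate 1 and 18 in replicate 2. In each library the authors' signal is a whole number per peak whose definition is not given, so values are compared only within a library. Its median over all peaks was 44 in replicate 1, and the middle of that list ran from 32 to 66. For replicate 2 the median was 18 and the middle ran from 12 to 29. The first start was therefore above the median peak in replicate 1 and equal to it in replicate 2. The strongest promoter lay 6.6 kb further in, around 5 start positions from 105675109 to 105675527, with signals of 116 and 26. It was the strongest region of the window in replicate 1, at percentile 96.2 of that list. In replicate 2 it was at percentile 69.6, the highest within the gene but below 2 sites of the upstream flank.

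A start position between these, at 105673963, had a replicated region with signals of 85 and 20 and a second one, chr2:105674196-105674425, with 75 and 16. The internal starts of intron 3 formed 2 groups served by the same region, chr2:105682036-105682305, with signals of 80 and 18. This is the part of the gene in which the internal promoter is known to lie. The 2 positions at 105676128 and 105676129 had no replicate 1 peak within 500 bp. They were reached by the edge of the strongest promoter region and by replicate 2 peaks of up to 20.

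The other 6 start positions lacked a replicated region. The position at 105671860 had replicate 2 peaks of up to 9, that at 105683754 peaks of up to 11 and that at 105685322 peaks of up to 15, all without a replicate 1 peak. The positions at 105678391, 105679867 and 105692483 had a peak of neither library. In bulk tissue a site open weakly in many cells and one open strongly in few cannot be told apart, here or at any other site.

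**Figure D2:**
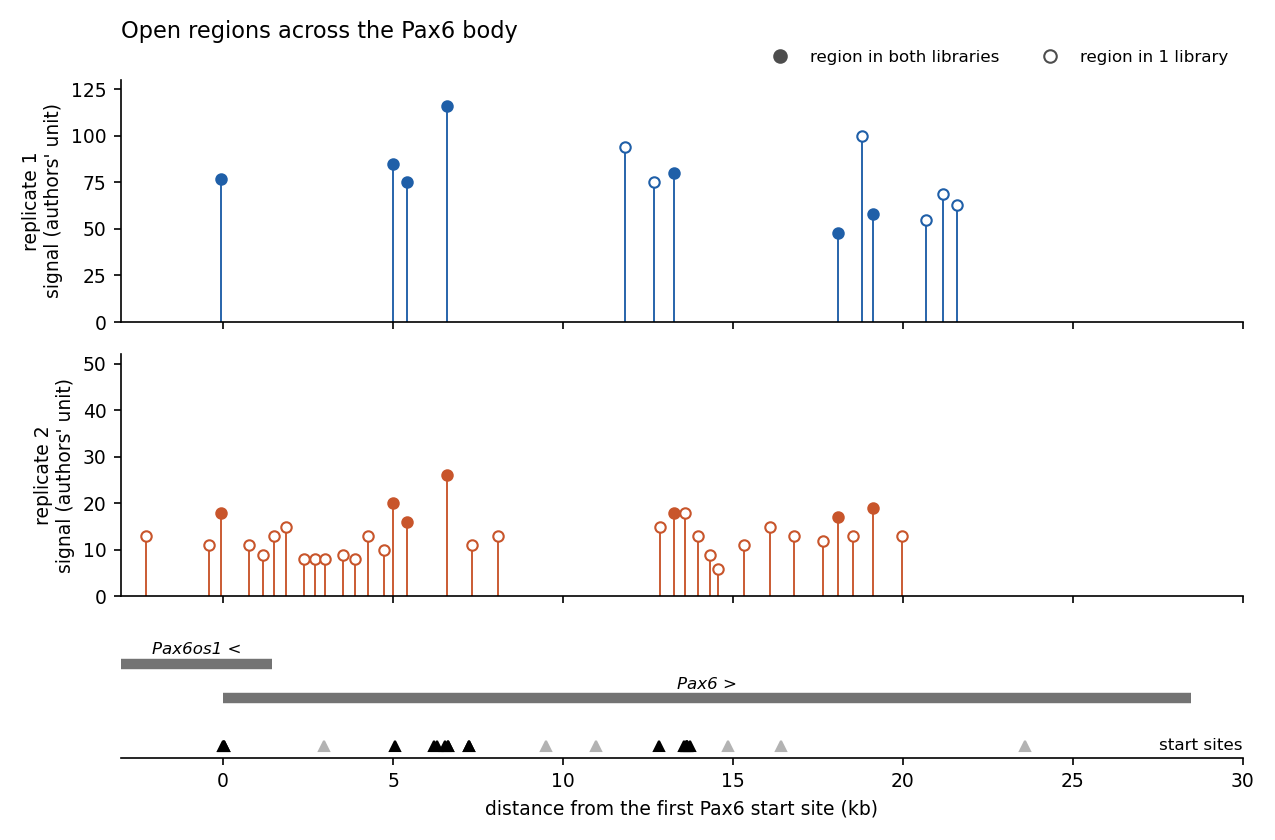
Open regions across the Pax6 body, plotted by distance from the first Pax6 start site (kb) against the highest deposited signal of each library in the region (authors' unit, scales differ). Filled points are replicated regions, open points regions of 1 library, black triangles the start positions with a replicated region within 500 bp and grey triangles those without. Replicate 2 has a dense row of low points over the first 6 kb where replicate 1 has 3 points, and replicate 1 has 3 points past the last point of replicate 2.

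The libraries differed in where in the window their peaks lay. The Pax6 body, 28465 bp long, held 13 peaks of replicate 1 and 35 of replicate 2, or 45.7 and 123 per 100 kb. The upstream flank of 200 kb held 29 and 10 (14.5 and 5 per 100 kb). The part of Elp4 inside the window, 196338 bp, held 23 and 4 (11.7 and 2.04 per 100 kb), and the 3662 bp between the 2 genes held 0 of either. Replicate 1 thus had more peaks than replicate 2 in both flanks and fewer in the gene. Hotspots showed the same order: they covered 14.2% of the Pax6 body in replicate 1 and 37.6% in replicate 2, against 3.82% and 1.07% of the upstream flank and 2.67% and 0.322% of Elp4.

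**Figure D3:**
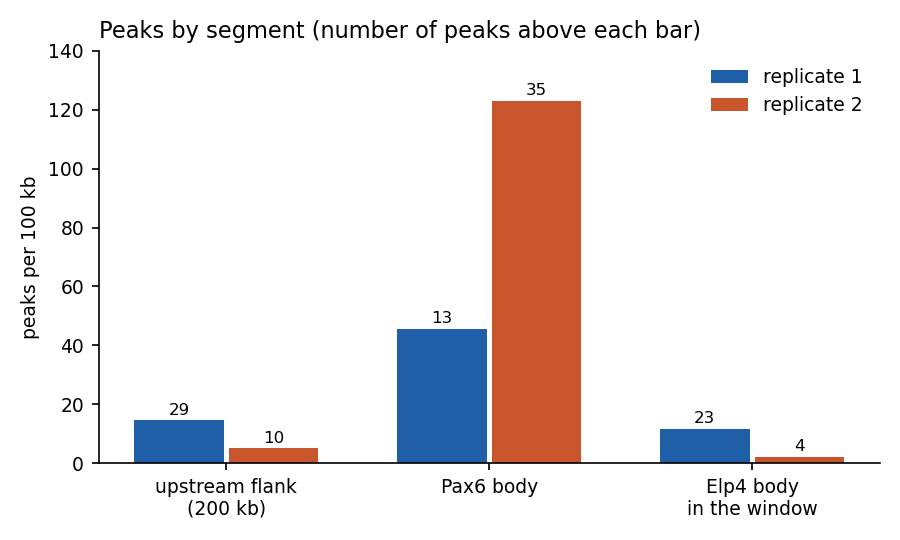
Peaks per 100 kb (bars, from 0) of replicate 1 and replicate 2 in the upstream flank, the Pax6 body and the part of the Elp4 body inside the window, with the number of peaks above each bar. Replicate 2 reached 123 per 100 kb in the body against 45.7 for replicate 1, and the order was the opposite in both flanks.

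Replicate 2 therefore supplied 72.9% of the peaks in the Pax6 body and 21.2% of those in the flanks. Over the genome it supplied 34.9% of all peaks, and among 2361 protein-coding genes with 20 or more peaks in the body its median share was 32%, with a 95th percentile of 53.8%. In 161 of these genes (6.82%) replicate 2 had more peaks in the body than replicate 1, and in 18 (0.762%), Pax6 included, its share was at least 72.9%. These values place Pax6 among genes and are no test, since the locus was chosen for its peaks. With the replicate 1 list shortened by signal to 122593 peaks, the length of the replicate 2 list, the body still held 13 replicate 1 peaks and the flanks 33. The replicate 2 list was unchanged by this, with 35 and 14. Among the stronger 50% of each list, however, the body held 13 peaks of replicate 1 and 6 of replicate 2, so the excess of replicate 2 in the body lay among its weaker peaks.

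Some of these weak peaks lay in a row that began in the upstream flank, and others lay further into the gene. Counting peaks whose starts lie at most 1000 bp apart as 1 row, replicate 2 had a row of 18 peaks from 105668356 to 105674425, over 6070 bp, beginning just before the first start site and ending before the strongest promoter. Their signals ran from 7 to 20 with a median of 10, and their starts were a median of 320 bp apart. Of the 74369 rows of replicate 2, 323 had 10 or more peaks, 65 (0.0874%) were as long or longer, and the longest had 46. The row is the longest of the window and rows were defined after values had been seen. These counts are therefore a description and no test. The longest row of replicate 1 in the window had 4 peaks, from 105515016 to 105516725 in the upstream flank, with a median signal of 50. Within the row of replicate 2, replicate 1 had 3 peaks, those of the first start site and of the regions at 105673816 and 105674196.

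Further peaks of replicate 2 alone lay over the internal starts and the exons after them. The strongest in the window was chr2:105682416-105682565 in intron 3, with a signal of 18, next to the shared region at the internal start sites. It was followed by 3 at 15, namely chr2:105670676-105670825 in intron 1, chr2:105681676-105681825 in intron 3 and chr2:105684916-105685065 on exon 6. Several more had 13. Of the 27 regions of replicate 2 alone, 24 lay in the Pax6 body, 3 in the upstream flank and 0 in Elp4. Their median signal of 11 was at percentile 20.2 of the replicate 2 list, whereas the replicated regions of the window had a median of 18 in that library, at percentile 48.8.

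Replicate 1 also had sites of its own in the gene, and they were not weak. The strongest of its regions without a replicate 2 peak in the whole window was chr2:105687616-105687765 in Pax6 intron 7, with a signal of 100. A replicate 2 hotspot of the strongest class covered it, and a replicated region (58 and 19) followed directly after it. The next, chr2:105680656-105680805 in intron 3, had a signal of 94 and no replicate 2 hotspot. Another, chr2:105681516-105681665 at 75, overlapped the widest replicate 2 hotspot of the window, which spanned 1124 bp from 105681536 to 105682659. Of the 46 regions of replicate 1 alone in the window, 2 touched a replicate 2 hotspot. Of the 27 regions of replicate 2 alone, 2 touched a replicate 1 hotspot. Whether the placing of peaks kept such regions apart was not tested. Intron 7 also held replicate 1 peaks of 55, 69 and 63 within the last part of the gene to have any.

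In the downstream region inside Elp4 every open region had a replicate 1 peak. Most distal regions of the genome had one too: 52522 were replicated, 134753 were of replicate 1 alone and 32210 of replicate 2 alone. Of all regions in the genome, 28.7% were replicated. Of the 22 regions in Elp4, 4 were replicated, 18 belonged to replicate 1 alone and 0 to replicate 2 alone. The replicated ones lay in Elp4 intron 9 (chr2:105705456-105705685, signals 57 and 9, 8.2 kb past the end of Pax6), intron 6 (chr2:105813116-105813305, 84 and 20, 115.8 kb past it), intron 3 (chr2:105854856-105855065, 98 and 17, 157.6 kb past it) and intron 2 (chr2:105881236-105881425, 24 and 16, 184.0 kb past it). The sites of introns 6 and 3, whose sequences are given above, were in the upper part of the replicate 1 list, at percentiles 86.3 and 91.9, and in the middle of the replicate 2 list, at 55.5 and 44.9. All 4 were over 500 bp from any annotated start site.

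Among the Elp4 sites of replicate 1 alone, the strongest was chr2:105804656-105804805 in intron 7, with a signal of 88, at 107.4 kb past Pax6. It closed a run of rising signals along that intron, with 54 at 98.9 kb, 64 at 100.7 kb, 73 at 102.7 kb (chr2:105799956-105800105) and 86 at 103.5 kb (chr2:105800776-105800925). Intron 9, the Elp4 intron nearest to Pax6, had chr2:105715836-105715985 at 18.5 kb and chr2:105722476-105722625 at 25.2 kb, both with a signal of 87. The hotspots around the sites of 88, 73 and both of 87 were in the strongest class of replicate 1 (a deposited −log10 q value of 100), and no replicate 2 hotspot touched any of them. Between 39.0 and 62.5 kb past Pax6 the 5 replicate 1 sites were weak, at 23 to 30.

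Upstream, 6 of 31 regions were replicated (28.7% in the genome), 22 were of replicate 1 alone and 3 of replicate 2 alone. The furthest, chr2:105469076-105469225 at -199.8 kb, had signals of 84 and 47 and the highest replicate 2 value of the window. It sits 0.2 kb inside the edge of the window, so a slightly narrower window would lose it. The site at -145.4 kb, chr2:105523336-105523605, had 95 and 29, and the site at -52.5 kb, chr2:105616376-105616525, inside an intron of the antisense gene Pax6os1, had 100 and 24. These 3 were the only replicated sites whose replicate 2 signal reached 24 apart from the strongest promoter. Another pair, chr2:105514976-105515165 (87 and 9) and chr2:105524816-105524985 (35 and 5), was weak in replicate 2, and the last of the 6 was the first start site.

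Of the upstream sites in replicate 1 alone, the strongest was chr2:105608236-105608385 at -60.6 kb, with a signal of 92. It stood in a group of 7 such sites from -63.9 to -52.9 kb with signals of 36 to 92. At -8.7 kb, chr2:105660176-105660325 had a signal of 82 and touched an exon of Paupar, a long noncoding RNA gene transcribed away from Pax6, and 2 more, of 68 and 64, lay 613 and 607 bp to either side of the Paupar start site. The pseudogenes Gm13890 and Rpl10-ps1, the noncoding genes 4930527A07Rik and Gm13954 and Pax6os1 are also annotated in the window.

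Over the 16 replicated regions the signals of the libraries had a Pearson correlation of 0.464 and a Spearman correlation of 0.612. The regions share both libraries and some are neighbours, so this is a description only.

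The members nearest to the edges of the window were as follows. Upstream, the last peak inside was the -199.8 kb site in both libraries, and the first outside had a signal of 37 in replicate 1, 14.3 kb beyond the edge, and 40 in replicate 2, 40.6 kb beyond. Downstream, the last peaks inside had signals of 24 and 16, each 16.0 kb before the edge. The first outside were at 134 in replicate 1, 7.2 kb beyond, and 13 in replicate 2, 6.7 kb beyond. The value of 134 belongs to the shared promoter of Elp4 and Immp1l, where the highest signals within 500 bp of a start site were 134 and 72.

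Base composition differed between the classes of distal region, those with a midpoint over 500 bp from any annotated start site. In the Pax6 window the 11 replicated distal regions had a median GC content of 47.4%, the 44 of replicate 1 alone 50.7% and the 12 of replicate 2 alone 53.8%. Over the genome the same 3 medians were 50%, 48.7% and 44.7%. The order by class was therefore reversed, with the replicate 2 regions of the Pax6 window richer in GC than those elsewhere. Their ratio of observed to expected CpG was 0.354 against 0.202 genome-wide, and that of the replicated regions was 0.208 against 0.27. The classes also differed in place: 10 of the 12 of replicate 2 alone lay in the Pax6 body, against 5 of the 44 of replicate 1 alone. Over all regions of the body, distal or not, the median GC content was 54.3% for replicated regions, 55.7% for replicate 1 alone and 52.4% for replicate 2 alone. There replicate 2 alone was lowest, as in the genome, but replicated regions stayed below replicate 1 alone, as among the distal regions of the window. Only 2 of the 6 replicated regions of the body were distal, so these values cannot decide the distal order there. Class was not separated from place.

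Among the 11 distal replicated regions, CAGATG was in 4 (36.4%), against 18.3% of the 52522 such regions in the genome and 14.2% of stretches of the same length beside them. CACGTG was in 2 (18.2%), against 3.62% and 2.70%, and TGACAG in 2 (18.2%), against 16.1% and 12.8%. The homeodomain word TAATTA, which the PAX6 homeodomain can also bind, was in 1 (9.09%), against 5.22% and 5.13%. TTCACGC, the core of the paired-domain site of PAX6, was in 0 of the 16 replicated regions, 0 of the 46 and 0 of the 27, and in 0.741% of distal replicated regions of the genome. The SOX word CATTGT and the AP-1 word TGANTCA were in 0 of the 11, against 9.54% and 5.88% of distal replicated regions of the genome. So were the forkhead word TGTTTAC and the GATA word AGATAAG, against 2.37% and 1.69%. The RFX word GTTGCC and the SP/KLF word GGGCGG were also in 0, against 12.9% and 8.43%. The same held for the POU octamer and CREB words, against 1.38% and 0.409%. The nuclear factor I word TTGGCA was in 1 (9.09%), against 16.5%. The OTX, TCF/LEF and ETS words were in 1 each, against 5.78%, 2.75% and 1.47%. The SOX word was in 9 of the 46 regions of replicate 1 alone (19.6%), and in 8 of all 55 distal regions with a replicate 1 peak (14.5%), against 8.86% of such regions in the genome. With so few regions, 1 region moves a share by 9.09 percentage points.

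Compared with other genes, the Pax6 window was not crowded with shared distal sites. It had 2.57 distal replicated regions per 100 kb, and 54.7% of 21938 protein-coding genes had at least as many, with a median of 2.77. Distal replicate 1 peaks came to 13.5 per 100 kb against a median of 8.78, with 16.9% of genes at least as high. Those of replicate 2 came to 6.3 against 4.49, with 30.2% of genes at least as high. The 5 genes with the most similar 3 values, by Euclidean distance over the scaled log2 densities, were Ugt1a10 (0.0493), Spock1 (0.0567), Ugt1a9 (0.0583), Ugt1a8 (0.072) and Gkn1 (0.0773), against a median distance of 1.18 over 21932 genes. The Ugt1a genes overlap each other and are 1 locus.

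The other PAX genes encode related paired-domain factors and served as the nearest comparison. Pax6 had replicated regions at 18 of 24 start positions, which share regions, against 49.0% of start positions genome-wide. Pax5 and Pax8 had them at 1 of 7 each, and Pax1, Pax2, Pax3, Pax4, Pax7 and Pax9 at 0. With a 50% reciprocal overlap Pax6 had 4 (16.7%), Pax5 1 (14.3%) and the others 0, against 46.5% genome-wide. With a reach of 100 bp Pax6 had 7 (29.2%) and the others 0, against 39.2%. Pax7, a dorsal midbrain gene, had the most peaks in its window (87 and 61), the most distal replicated regions (30, or 6.04 per 100 kb) and a promoter signal of 41 in replicate 1 with no replicate 2 peak within 500 bp. Pax5 and Pax2, genes of the midbrain and hindbrain border, differed in this. Pax5 had a signal of 110 in replicate 1 and no replicate 2 peak within 500 bp of a start. Its 1 replicated position was reached only by the replicate 1 part of a merged region. Pax2 had 71 and 17 in separate regions. Pax3, another dorsal gene, had 106 in replicate 1 and none in replicate 2.

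In the body, Pax8 was the only other member with more peaks of replicate 2 (8) than of replicate 1 (5). Pax7 had 16 and 14, Pax5 27 and 11, Pax3 15 and 4, Pax2 11 and 4, Pax1 4 and 2, and Pax4 and Pax9 had 1 and 0. The longest row of replicate 2 peaks in a window was 18 for Pax6, 10 for Pax1, 7 for Pax7 and 6 for Pax2. The remaining 5 had rows of 2 to 4.

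**Figure D4:**
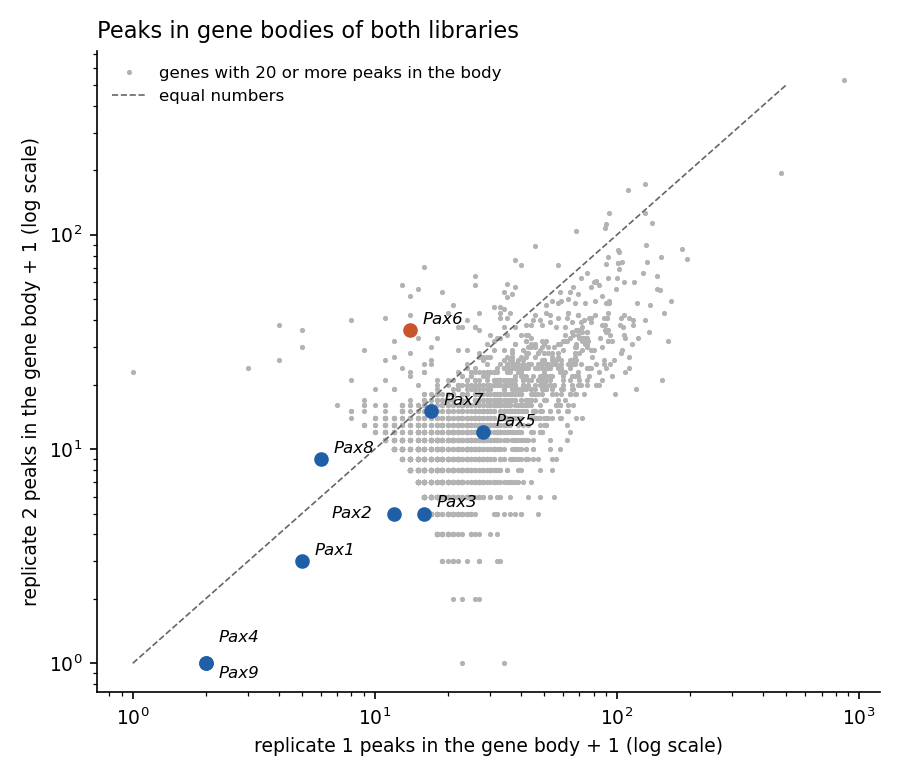
Number of peaks in the gene body plus 1, replicate 1 against replicate 2, both on log scales, for the 2361 protein-coding genes with 20 or more peaks in the body (grey) and for the PAX genes (blue, Pax6 orange). The dashed line marks equal numbers. Pax6 lies above it with 13 and 35 peaks, as do 6.82% of the grey points, and of the other PAX genes only Pax8 lies above it.

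Genes that act with PAX6 or are reported under its control had mostly replicated promoters. Of 12 partners and regulators, 10 had a replicated region within 500 bp of a start site, among them the Notch effector Hes1 (119 and 43) and the eye and forebrain factor Lhx2 (94 and 44). Sox3 had 58 and 16 in separate regions, and the eye field gene Rax had no peak. Of 16 genes reported as controlled by PAX6, 12 had one, including the cadherin Cdh4 (105 and 44), while the forebrain gene Emx2 (59) and the progenitor factor Dbx1 (33) had a replicate 1 peak alone. Of 7 matched genes of the aniridia deletion region, 6 had one, including Bdnf (97 and 42) and Dnajc24 (125 and 61), and the kidney gene Wt1 had no peak. All 3 shares, 83.3%, 75.0% and 85.7%, stood above the 61.0% of protein-coding genes, and no test was made of them.

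Marker lists for the tissue and its neighbours were mixed. The midbrain and isthmus list had 7 of 15 replicated promoters, with En1 (108 and 36) and En2 (112 and 52) among them, but Gata2 (45 and 14) was open in separate regions and Foxa2 had no peak. The forebrain list had 3 of 8, with Dlx1 (64 and 24) and Dlx2 (49 and 22) but not Emx1 (50 and 18, in separate regions) or Emx2. The hindbrain list had 3 of 8, with Egr2 (113 and 38) among them, while Hoxa2 had 96 in replicate 1 alone and Hoxa3 no peak. Lists for places where PAX6 is known to act ranged from 7 of 8 in the cerebellar granule lineage, with Atoh1 (89 and 17) and Barhl1 (90 and 23) but not Gabra6 (24 in replicate 1 alone), to 0 of 8 in the eye, where Crx and Cryaa had no peak. Radial glia and astrocytes had 8 of 10, with Fabp7 (108 and 42) and Gfap (108 and 46) but not Aldh1l1 (80 in replicate 1 alone) or Aqp4 (46 and 16, in separate regions), and the pancreatic islet had 2 of 8, with Nkx6-1 (103 and 25) among them and no peak at Gcg or Iapp. The share of the midbrain and isthmus list, 46.7%, was thus below the 61.0% of protein-coding genes. The forebrain, hindbrain, eye and pancreatic islet lists were also below it. Those of the cerebellar granule lineage and of radial glia and astrocytes were above it, and no test was made of these shares. Which cells of the dissected tissue opened the Pax6 sites, and what part neighbouring tissue had in them, was not tested.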

How the data were processed

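Peaks and hotspots on mm10 were deposited for each library, each list derived from the filtered alignment of 1 replicate per the file headers. Aligner, caller, thresholds and read depth are not given in the sources used, so depth sets an unknown limit on every value. The deposited signal of each 150 bp peak is the authors' own value and was used only within a list. Hotspots carry a deposited −log10 q value, in which 100 is the strongest class, and a deposited display score, which was not used.

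Of 228440 and 122838 listed peaks, 228203 and 122593 were used, after 215 and 221 on other sequences and 22 and 24 duplicated positions had been removed. Peaks sharing at least 1 bp were merged into regions. A start site had a replicated region when any base of that region was within reach, so the peak of 1 library could lie out of reach. A peak or region belonged to the window or a gene body by its midpoint, and was distal when that midpoint was over 500 bp from every annotated start site. Exon and intron numbers follow 1 GENCODE M21 transcript of each gene, with 13 exons for Pax6 and 10 for Elp4, in the direction of transcription. Most-like genes were the 5 with the smallest distance over 3 distal densities, as log2(value + 1) scaled to unit SD, leaving out overlapping windows. Python 3.11.15 with numpy 2.4.6, scipy 1.17.1 and pysam 0.24.0 was used, and the counting was checked on made-up lists of known overlap.

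Members and lists were chosen with earlier results of these data known. Named regions were the replicated ones, the 10 strongest of replicate 1 alone, the 5 strongest of replicate 2 alone and those at the edges, with others named after their values were seen. Named genes were the PAX family, those in the window, the most-like 5 and, from each list, the first 2 by symbol with and without a replicated promoter, except for a few items that are not reported here. The 17 words, the definition of a row, the count of 20 peaks per body and the choice of sequences to print followed after values had been seen. Of the list members, Dcdc1 was not matched by symbol. Alternatives covered the overlap, peak threshold, list length, hotspots, flank, promoter window, gene models and each library alone.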

Additional observations from a re-analysis of the deposited data

How the results depend on the processing

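Of 82 values recomputed under 12 alternatives, 56 stayed within 1.5 times the reported count or within its interval, 25 moved and 1 reversed. Some of the 56 could not change, because the altered setting did not enter the value. Examples are the replicated regions of the window under other promoter windows and the start positions under other flanks. The tally is therefore no measure of stability. The reversed value is the excess of replicate 2 peaks over replicate 1 peaks in the Pax6 body, 22 peaks as reported and -7 with the stronger 50% of each list. It was 13 with hotspots. In the flanks the same difference was -38 peaks and became -19 with lists of equal length. These alternatives for the body and the flanks were chosen after seeing the data.

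The 16 replicated regions became 10 with a reciprocal overlap of 50%, 9 with the stronger 50% of each list, 9 with flanks of 100 kb and 8 with flanks of 50 kb. The 36.7% of replicate 2 peaks that were shared became 20.4%, 90.9% and 24.4% under the first, the second and the last of these. The 18 start positions became 4 with the reciprocal overlap, 7 with a reach of 100 bp and 8 with protein-coding transcripts only, which leaves fewer positions. The 6 replicated regions of the Pax6 body became 2 with the reciprocal overlap, and the stronger 50% left 1 of the 4 in Elp4 and 1.17 distal regions per 100 kb.

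With each library taken alone, the regions of the window numbered 43 to 62, distal regions per 100 kb 5.37 to 12.8, and the share of genes at least as dense 18.9% to 35.1%. The same ranges by segment were 9 to 28 upstream, 12 to 30 in the Pax6 body and 4 to 22 in Elp4. Of 34 recomputed motif shares 2 moved, TAATTA and TAATCC, both to 0 with 150 bp searched. The causes were not tested. No paired analysis was possible because there was 1 group. Unknown read depth limits what the absence of a peak in either library can show.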

Other observations

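The genes in which replicate 2 supplied the largest share of peaks in the body were listed after their values were seen, and no theme was tested. Of genes with 20 or more peaks in the body, Tfap2b had 3 peaks of replicate 1 and 37 of replicate 2, Sim1 2 and 23, Shox2 3 and 25, Gata3 4 and 29, Zeb2 15 and 70, and Lhx9 10 and 40. The other members of the top 10 were Chil3 (0 and 22), Camk1g (4 and 35), Ppp1r21 (7 and 39) and Frmd6 (12 and 57). Tfap2b and Gata3 had been placed in the midbrain list, and neither had a replicated promoter region there. Whether such genes share anything with Pax6 beyond these counts was not tested.

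Rows of 10 or more peaks numbered 323 in replicate 2, holding 4763 of its peaks, and 153 in replicate 1, holding 1969, although the list of replicate 1 is the longer.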
